A study of Drosophila melanogaster with 4 samples.

Results

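Broad domains of H3K9acS10P, a double mark in which a lysine of histone H3 is acetylated and the neighbouring serine phosphorylated, were taken as the enriched clusters of at least 8 kb in a list that combined 2 ChIP samples. There were 342 of them among 9877 combined clusters (3.46%, 95% Wilson interval 3.12 to 3.84, which covers counting of clusters only). The domains were chosen by their width, which came from the same reads as all other measures described here, so every comparison is a description without a test. The mark was measured by chromatin immunoprecipitation and sequencing (ChIP-seq) in nuclei prepared from larvae of the wild-type strain Oregon-R of Drosophila melanogaster, all at the third instar. No treatment or mutant was compared. The 2 ChIP samples, replicates 1 and 2, each had an input sample, and all 4 samples share strain, genotype and stage. The labels name no tissue and give no sex, so which larval cells the clusters describe is not known. They also do not say whether the replicates were separate cultures, and differences between them may be technical.

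Acetylation of the lysine is known from active genes. Phosphorylation of the serine is known from condensed mitotic chromosomes, where Aurora B is the kinase. In interphase it is known from the open interbands of fly polytene chromosomes, where the kinase is JIL-1, a protein enriched on the male X. Carrying both modifications on a single tail is a feature of open rather than compacted interphase chromatin. Wide stretches of a histone mark can hold several neighbouring sites of modification that a cluster caller has joined, so how separate lists cut the same stretch is part of describing it.

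Broad domains made up 13.4% of all bases inside combined clusters, 3.80 Mb in all. Their median width was 10087 bp, with quartiles at 8893 and 12066 bp, against 2183 bp for the 8981 narrower clusters on the same sequences. Of the domains, 165 were under 10 kb, 90 between 10 and 12 kb, 52 between 12 and 15 kb, 26 between 15 and 20 kb, and 9 were wider. The widest measured 29.0 kb. The narrowest domains, 3R:7461336-7469336, 3R:16379650-16387658 and X:8482004-8490026, were 8001, 8009 and 8023 bp wide. The widest clusters left outside, 3L:7966338-7974336, 2L:16281986-16289956 and 3L:647972-655932, were 7999, 7971 and 7961 bp wide. All coordinates are on FlyBase release 5 of the genome, per the file headers, and no gene annotation of that release was used here.

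**Figure D1:**
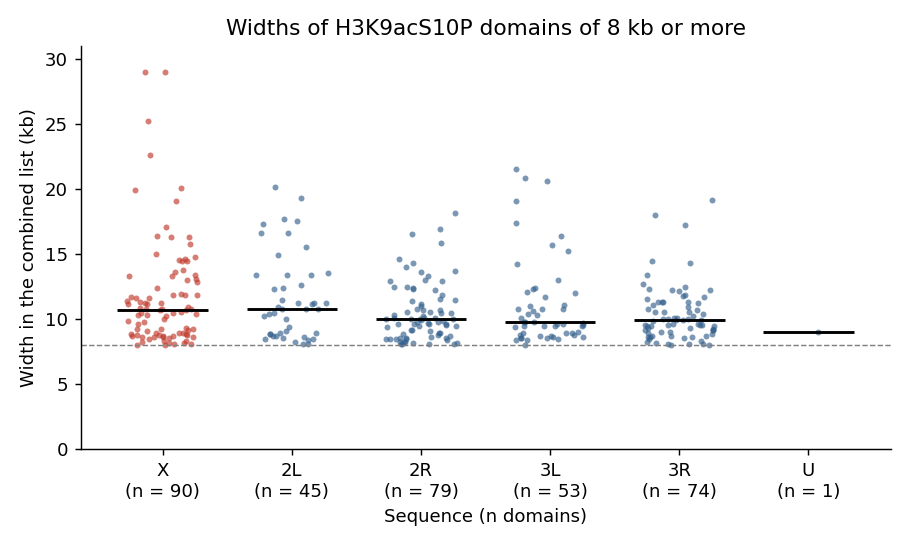
Width in kb of each domain of 8 kb or more in the combined list (points), by sequence, with the median as a bar and the minimum width as a dashed line. Medians lie between 9757 and 10789 bp on the 5 arms, and the 4 widest domains are on the X.

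The X held 90 domains, 2R 79, 3R 74, 3L 53 and 2L 45. The remaining domain lay on U, the sequence not placed on a chromosome. Per Mb, the X had 4.01 domains and 2R 3.74, followed by 3R with 2.65, 3L with 2.16 and 2L with 1.96. Narrower clusters spread differently, with 68.3 per Mb on the X and 78.5 on 2R. Chromosome 4, rich in repeats and in bound HP1, had no domain among 67 clusters (Wilson interval 0 to 5.42%), and the widest there was 7865 bp. That interval contains the 3.46% of the combined list, so 67 clusters are too few to set chromosome 4 apart. The heterochromatin scaffolds had no domain among 487 clusters (interval 0 to 0.783%), with a widest of 7085 bp. These absences are from a list whose calling threshold is not known and from sequence rich in repeats, where reads may not be placed.

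The share of domains on the X differed between the replicates. The X took 90 of the 341 domains on the large arms (26.4%, 95% Wilson interval 22.0 to 31.3), against 18.0% of narrower clusters on the same arms. Of combined clusters of any width on the sequences that hold domains, U included, it took 17.4%. It makes up 18.8% of the length of the arms. In the replicate 1 list, 26 of 129 clusters of at least 8 kb were on the X (20.2%, interval 14.1 to 27.9). The corresponding count in replicate 2 was 67 of 197 (34.0%, interval 27.8 to 40.9). Per Mb, the X exceeded the autosomal arms in such clusters by a ratio of 1.09 in replicate 1 and 2.22 in replicate 2 (mean 1.65 ± 0.80, SD, n = 2). For clusters under 8 kb the same ratio was 0.905 and 0.927. A high share of wide clusters on the X was thus seen in replicate 2 and in the combined list, while the replicate 1 share was near that of length. By arm, replicate 2 had 2.58 times as many such clusters as replicate 1 on the X, 1.5 times on 2L, 1.31 times on 2R and 1.25 times on 3R. On 3L both lists had 22.

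Along the arms, few domains lay at the ends next to the centromere. The outermost 1 Mb at that end held no domain on X, 2L, 2R or 3L and 2 on 3R, which is 2 domains among 263 clusters over the 5 arms (0.76%). The 1 Mb at the telomeric ends held 26 among 426 clusters (6.10%), with 4 to 6 on each arm. For comparison, the whole arms held 341 domains and 8493 narrower clusters, and domains were 3.46% of the combined list. Over 117 complete bins of 1 Mb, the median was 3 domains and 17 bins had none. The fullest bin, X:1000001-2000000, held 15, and the same bin held 6 clusters of at least 8 kb in replicate 1 and 9 in replicate 2. Next were 2R:5000001-6000000 with 9 and X:11000001-12000000 with 8. The second X bin differed between the lists, with 1 such cluster in replicate 1 and 6 in replicate 2.

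Domains lay nearer to each other than narrower clusters lay to a domain. The median gap from a domain on the large arms to the nearest other domain was 61.9 kb, with quartiles at 14.2 and 182 kb. Even spacing would put starts 349 kb apart, which is an unlike measure. Unless spacing is even, the nearer neighbour tends to stand closer than the mean spacing. Ratios to even spacing given below therefore compare sets with each other only. A narrower cluster was 108 kb from the nearest domain at the median. Within 50 kb of another domain were 162 of 341 domains (47.5%), against 32.1% of narrower clusters within 50 kb of a domain. The 341 next-widest clusters of the same arms, 6199 to 7999 bp wide, gave nearly the same values among themselves, with a median gap of 67.2 kb and 43.1% within 50 kb. Closeness of this kind was therefore also a feature of clusters just under the threshold. The gap rested on the number of domains: it was 193 kb among the replicate 1 clusters of at least 8 kb and 100.0 kb among those of replicate 2. On the X the median gap was 47.6 kb for 90 domains and 115 kb for 64 next-widest clusters, which is 0.19 and 0.33 of their even spacing. On 2L it was 56.9 kb for 45 domains and 117 kb for 51 next-widest clusters (0.11 and 0.26). On 3L the order was the other way, at 107 kb for 53 and 49.5 kb for 63 (0.23 and 0.13).

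**Figure D2:**
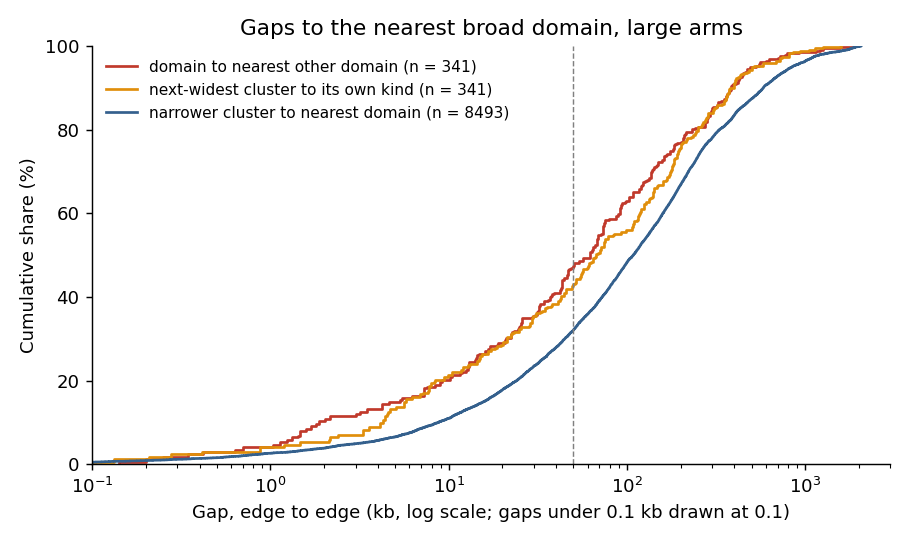
Cumulative share of regions on the large arms by the gap to their nearest neighbour (kb, log scale): domains to other domains, next-widest clusters to each other, and narrower clusters to domains, with 50 kb as a dashed line. The first and second curves run close together and lie above the third, reaching 47.5%, 43.1% and 32.1% at 50 kb.

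Linking domains across gaps of up to 50 kb gave 68 groups of 2 or more. The X had 18 groups, 2R 17, 3R 14, 3L 10 and 2L 9. The largest, X:15601506-15757282, held 5 domains of 8.05 to 12.4 kb in a span of 156 kb, with 16 narrower clusters between them. That span was covered to 43.8% by replicate 1 and 56.9% by replicate 2. Of the groups of 4, X:1751004-1847412 had 62.8% of its 96.4 kb inside domains, and X:1451976-1566320 had 43.2% of 114 kb. On 2R, 20823882-20902986 had 59.4% of 79.1 kb inside domains, covered to 65.8% and 69.3% by replicates 1 and 2, and 18437106-18580154 had 31.9% of 143 kb. Replicate 2 covered more than replicate 1 in each of these spans. On the X, the span from 1751004 was inside replicate 1 clusters for 57.8% of its length and inside replicate 2 clusters for 79.9%. The span from 1451976 showed the same order, at 36.4% and 52.1%.

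The sequence beside domains was more covered than that beside narrower clusters. In the 20 kb on each side of the 341 domains on the arms, 26.5% of bases lay in replicate 1 clusters and 32.9% in replicate 2 clusters (29.7% ± 4.53, SD, n = 2). Beside narrower clusters the values were 21.6% and 25.6% (23.6% ± 2.82, SD, n = 2). The ratio was above 1 in each replicate and averaged 1.26 ± 0.04 (SD, n = 2). Over whole arms, coverage was 14.9% and 17.4%, so both kinds of flank were richer than the arm average. With the arms pooled, the flanks of the next-widest clusters were covered at 29.7% ± 3.48 (SD, n = 2). The arms differed in direction, with 32.0% beside domains and 26.4% beside next-widest clusters on 2L, and 27.6% and 31.9% on 2R (means of both replicates). By arm, the ratio of domain to narrower flanks ran from 1.09 ± 0.05 on 2R to 1.51 ± 0.01 on 2L (SD, n = 2).

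A domain also had more neighbours in its flanks than a narrower cluster, and so did the next-widest clusters. The mean number of clusters with their midpoint there was 3.32 in replicate 1 and 3.99 in replicate 2, against 2.91 and 3.40 for a narrower cluster. For the next-widest clusters it was 3.52 and 4.05, slightly above the values for domains. No neighbour stood in the flanks of 4.11% and 2.35% of domains, against 9.73% and 7.99% of narrower clusters. Among next-widest clusters these shares were 4.40% and 3.52%. In the combined list the mean number was 4.93 for domains, 4.86 for next-widest clusters and 4.53 for narrower clusters. The nearest cluster of any width was 0.745 kb from a domain at the median and 1.13 kb from a narrower cluster. A neighbour within 500 bp stood beside 127 domains (37.2%) and 31.2% of narrower clusters.

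**Figure D3:**
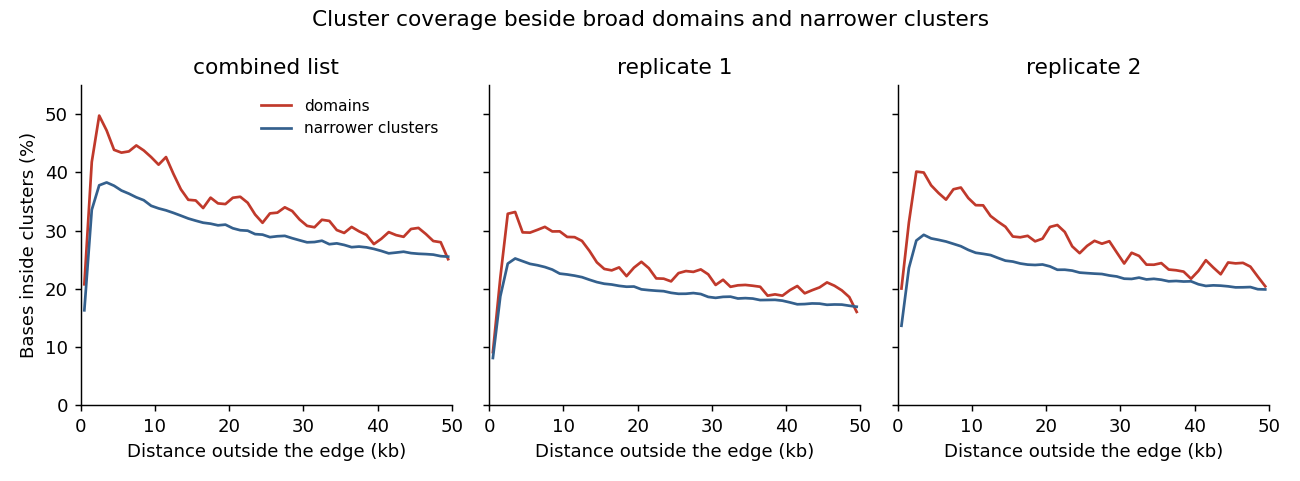
Percent of bases inside clusters by distance outside the edge (kb, 1 kb bins, both sides together), around the 341 domains and 8493 narrower clusters of the large arms, in each list. Coverage is higher beside domains in 49 of the 50 bins in the combined and replicate 1 lists and in all 50 in replicate 2, and the dip at the edge follows from clusters being separate there.

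The replicate lists cut most domains into pieces. All 342 domains met a replicate 1 cluster by at least 1 bp, where 58.6% of combined clusters of any width on the same sequences did. Replicate 2 met 341 (background 66.7%), and so did both together (background 50.6%). Replicate 1 split 177 domains into 2 or more clusters (51.8%, Wilson interval 46.5 to 57.0, background 5.12%), and replicate 2 split 191 (55.8%, interval 50.5 to 61.0, background 5.6%). Both split 109 (background 2.09%), and 82 were met by exactly 1 cluster in each (24.0%, background 42.5%). A wide region has more room for pieces than a narrow one, so nothing is read from these counts against their backgrounds. The mean number of pieces was 1.70 in replicate 1 and 1.79 in replicate 2 (1.75 ± 0.06, SD, n = 2). The share split rose with width through the threshold. It was 34.8% and 30.9% of clusters of 6 to 8 kb and 44.2% and 53.9% of those of 8 to 10 kb, in replicates 1 and 2. Of the 9 domains over 20 kb, each replicate split 77.8%. Per 10 kb of width the order was the other way. Pieces fell from 1.97 and 1.95 at 6 to 8 kb to 1.67 and 1.86 at 8 to 10 kb, and were 1.10 and 1.24 over 20 kb.

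**Figure D4:**
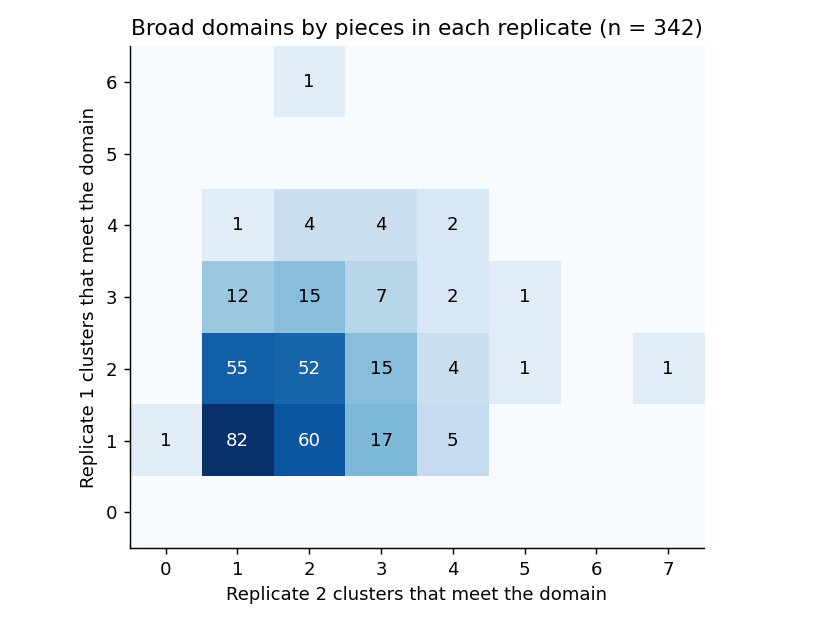
Number of domains by how many replicate 1 clusters (vertical) and replicate 2 clusters (horizontal) meet them. The largest cells are 82 domains with 1 cluster in each list, 60 with 1 and 2, 55 with 2 and 1, and 52 with 2 in each.

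The cuts were short, and the other replicate bridged most of them. Domains were chosen for running unbroken in a list combined from these replicates, so a gap left by both could have ended a domain. The shares bridged and overlapped may therefore partly follow from that choice, and no expected share was computed. Replicate 1 left 239 gaps between its pieces, with a median of 501 bp, and 49.8% of them were at most 500 bp. Replicate 2 left 268 gaps with a median of 468.5 bp, 52.2% of them at most 500 bp. Replicate 2 clusters covered every base of 135 of the replicate 1 gaps (56.5%), and 87 (36.4%) overlapped a gap of replicate 2. In the other direction 152 gaps (56.7%) were bridged and 86 (32.1%) overlapped.

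In bases, replicate 1 clusters covered 81.8% of the domains and replicate 2 clusters 87.8% (84.8% ± 4.22, SD, n = 2). Both covered 74.1% of domain bases, replicate 1 alone 7.70%, replicate 2 alone 13.7%, and neither 4.54%. Bases left out by replicate 1 were also left out by replicate 2 in 24.9% of cases, against 12.2% of all domain bases. Of the bases left out by replicate 2, replicate 1 also left out 37.1%, against 18.2% overall. Part of what was missing lay at the edges. The outermost replicate 1 clusters started and ended 249 bp inside the domain at the median, and those of replicate 2 52 and 38 bp inside.

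Coverage by the replicates differed most on the X. Median coverage of an X domain was 80.2% in replicate 1 and 96.0% in replicate 2, and replicate 2 covered more of 71 of the 90. On the autosomal arms the medians were 86.7% and 92.0%, with replicate 2 covering more of 157 of 251. In total bases, replicate 2 exceeded replicate 1 by 13.9 percentage points in X domains and by 2.92 points in autosomal ones. Narrower clusters showed a similar gap on the X, 13.7 points, and 5.64 points on the autosomal arms. The lower X coverage in replicate 1 was thus present at both widths. A cluster of at least 8 kb in replicate 1 met 26.7% of X domains, and in replicate 2 60% did, against 39.8% and 43.4% on the autosomal arms.

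**Figure D5:**
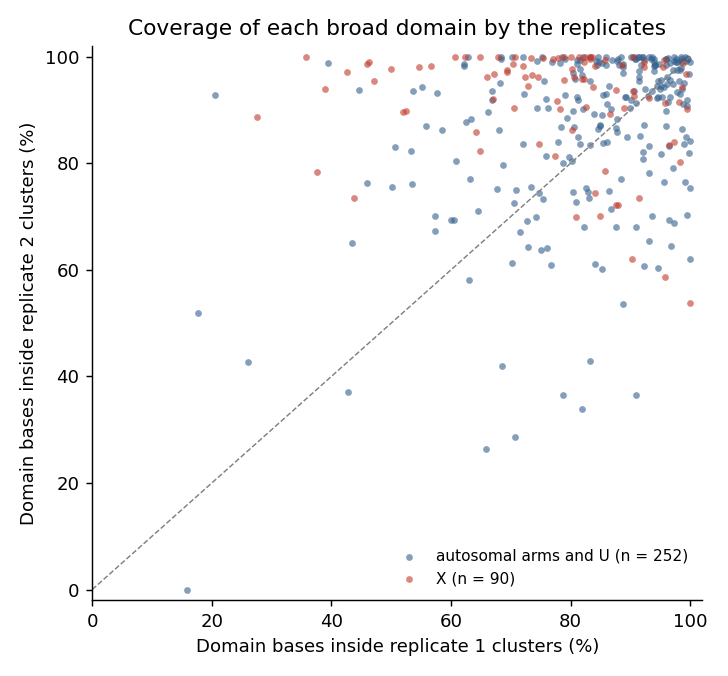
Percent of the bases of each domain inside replicate 1 clusters (horizontal) and replicate 2 clusters (vertical), for the X (red) and other sequences (blue), with equality as a dashed line. X domains lie above the line in 71 of 90 cases, and the point at 15.9% and 0% is the domain on U.

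Wide clusters of the replicate lists mapped unevenly onto the combined list. Of 129 clusters of at least 8 kb in replicate 1, 126 met a domain (97.7%), and 84 met a cluster of that width in replicate 2. Replicate 2 had 197, of which 163 met a domain (82.7%) and 34 met narrower combined clusters alone. The X held 13 of those 34, beside 67 of all 197 (34.0%). The combined list cut 42 of the 197 replicate 2 clusters into 2 or more, 18 of them on the X. A cluster of at least 8 kb stood behind 84 domains in both lists, behind 40 in replicate 1 alone and behind 79 in replicate 2 alone. The other 139 domains were this wide in the combined list only.

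The 10 widest domains showed the range of cuts. X:1956664-1985682 (29.0 kb) met 4 replicate 1 clusters over 83.3% of its length and 2 replicate 2 clusters over 100% of it. X:6868370-6897354 (29.0 kb) went the other way, with 2 and 7 clusters over 85.8% and 78.5%. X:1751004-1776242 (25.2 kb) met 6 and 2, over 81.8% and 95.7%. Among these 3, neither replicate was the finer one throughout. X:1499726-1522334 (22.6 kb) met 2 and 1 clusters. 3L:20923644-20945184 (21.5 kb) was the least covered of the 10, with 63.0% in replicate 1, 58.1% in replicate 2 and 44.7% in both. 3L:17947892-17968730 (20.8 kb) met 2 and 4 clusters. 3L:19884436-19905036 (20.6 kb) met 1 and 3, and X:2183578-2203664 (20.1 kb) 2 and 3. Both replicates called 2 of the 10 as 1 cluster each, namely 2L:834470-854634 (20.2 kb, covered to 83.3% and 100%) and X:5779374-5799264 (19.9 kb, 98.7% and 94.4%). The next widest of that kind was 3L:539084-558136 (19.1 kb, 94.5% and 92.3%).

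Outside these, 2R and 3R had narrower maxima. 2R:8054512-8072654 (18.1 kb) met 2 and 1 clusters over 92.1% and 99.9%. 3R:19732414-19751564 (19.2 kb) met 2 and 5 over 73.4% and 75.6%. Among the most cut domains was 2L:426894-444620 (17.7 kb), with 4 clusters in each list. The domain on U, U:313564-322558, met 1 replicate 1 cluster of 1427 bp over 15.9% of its length and no replicate 2 cluster.

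The authors' score, a value per cluster whose scale the sources used here do not name, rose with width up to the class of 4 to 6 kb and little beyond it. The median was 0.34 in clusters under 2 kb, 0.63 in those of 2 to 4 kb and 0.88 in those of 4 to 6 kb. For widths of 6 to 8, 8 to 10 and 10 to 12 kb it was 0.90, 0.89 and 0.96. Across the 342 domains, Spearman's rho of width with score was 0.08, against 0.56 across narrower clusters (regions of 1 list share their libraries, so no p is given). Domains spanned scores of 0.35 to 1.98, while narrower clusters reached 2.27 on 3L and 4.10 on U. On X, 2L, 2R and 3R their maximum was the same value, 3.17, so it may be a limit of the score. This was not tested. On the arms, 19.7% of narrower clusters scored above the median of the domains there, 0.93. X domains had a median of 1.10, and the other arms lay between 0.80 (3L) and 0.89 (2L). From 4 to 8 kb, X clusters also had the highest arm median, 1.00 against 0.81 to 0.90.

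Domains of higher score had more bases in both replicates. In the 114 domains of lowest score (0.35 to 0.76), the median share of bases in both replicates was 59.8%. It was 80.7% in the middle 114 and 86.4% in the highest 114 (1.11 to 1.98). From the lowest to the highest group, the mean number of pieces was 2.33, 1.76 and 1.27 in replicate 2, but 1.89, 1.54 and 1.67 in replicate 1. The lowest group held 9 X domains, and the highest held 44. Domains split by both replicates had a median score of 0.70, and those split by replicate 2 alone 0.85. The median was 1.15 for domains met by 1 cluster in each and 1.17 for those split by replicate 1 alone. The highest scores belonged to 2R:19944436-19952968 (1.98), 3L:3191152-3200908 (1.94) and 3R:7034144-7043696 (1.90). The first had 98.9% of its bases in both lists. The lowest belonged to 3R:24892672-24902166 (0.35), 2R:11684308-11692754 (0.35) and 3R:26079416-26090726 (0.40). In the 2R domain, replicate 1 covered 17.6% and replicate 2 52.0%, yet they shared 0.0829% of its bases, so the lists covered different parts of it.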

How the data were processed

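Broad domains were described from 3 lists of clusters: 1 from each ChIP sample and 1 from the replicate set, here the combined list. The submitters' processing notes name Bowtie 0.12.7, and per the file headers the genome is FlyBase release 5. The sources used here do not state how clusters were called or replicates combined. Every cluster has a deposited score from the authors, used to rank clusters within 1 list. Read depth is unknown and input values were not used here.

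Domains were combined clusters of at least 8000 bp. A replicate cluster met a domain from 1 bp of overlap, and gaps are edge to edge. Flanks were 20 kb on each side, and groups linked gaps of up to 50 kb. The comparison with equally many next-widest clusters was chosen after seeing the data. The interval functions were tested on simulated data. No test was run. Members and comparisons were chosen with earlier results of these data known. Regions are named by a fixed rule: the 10 widest, the widest of each sequence, those nearest the threshold, the most cut, the widest met by 1 cluster in each list, the highest and lowest scores, and the largest groups. The 2 depleted regions were left out. The annotation given, on release 6, could not be placed on these coordinates, so gene content was not analysed here. Software was Python 3.11.15, numpy 2.4.6, pandas 2.3.3, scipy 1.17.1 and matplotlib 3.10.9.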

Additional observations from a re-analysis of the deposited data

How the results depend on the processing

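Of 54 values recomputed under alternatives, 25 moved by less than the replicate SD, the Wilson interval or, for counts, 1.5 times, and 29 moved further. For flank coverage, the flank ratio, the share split and base coverage, the main value was the mean of both replicates. Each of 2 replicates lies within the SD of their mean, so leaving 1 out had to count as less there and shows nothing about stability. A change of direction was not scored. The number of domains was 740 at a minimum of 6 kb and 177 at 10 kb, as a width limit must give, 609 after joining neighbours across 500 bp, and 129 to 197 with 1 replicate left out. The X share was 20.2% to 34.0% with 1 replicate left out. The median gap between domains was 21.3 kb at 6 kb and 183 kb at 10 kb, where more or fewer domains remain, and 100.0 to 193 kb with 1 replicate left out. Grouped domains were 29.0% and 63.0% with links of 20 and 100 kb, 68.3% and 24.9% at minimum widths of 6 and 10 kb, and 32.6% to 37.6% with 1 replicate left out. Flank coverage was 23.4% without other domains in the flanks. The ratio of domain to narrower flanks was 1.30 and 1.20 with flanks of 10 and 50 kb and 1.17 without other domains, all above 1. Split domains were 20.3% with the higher-scoring 50% of replicate clusters, 30.7% after joining across 500 bp, and 42.4% and 58.2% at 6 and 10 kb. The higher-scoring 50% covered 67.7% of domain bases. Domains met by 1 cluster in each list were 50.6% and 51.2% under the same score and joining settings and 35.9% at 6 kb. The median score of the same domains was 0.97 to 1.02 when taken from the clusters of 1 replicate inside them, weighted by length. Those scores are on that list's own scale. Where no construction is named, the cause was not tested. Of 30 recounts of pieces in the 10 widest domains, 23 stayed within 1.5 times. No paired analysis was possible because the input samples had no file here and no test was run. Depth is unknown, so a gap in 1 list may be signal under its threshold.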

Other observations

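A region typed as depleted was listed on 3L from 12734162 to 12735984 in the combined list and from 12734458 to 12735958 in replicate 2. The nearest broad domain was 749 kb away. In the combined list, 2 pairs of neighbouring clusters overlapped, and in the replicate lists none did.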
